A study of Sus scrofa with 31 samples.

Results

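The Toll-like receptor genes TLR1, TLR2, TLR3, TLR4, TLR6 and TLR9, together with CD14, were followed across sorted pig microglia, alveolar macrophages and whole hippocampal tissue. Of 9 genes listed, 7 had an Ensembl identifier beside their symbol in the tables of the study and were measured here, out of 31907 genes with counts. TLR7 and TLR8 had no such identifier and are not among the 7, and their values, found by the gene names of the reference, are given beside TLR3 and TLR9. The identifier of each of the 7 genes stood in a list that the study had selected as higher in hippocampal microglia than in hippocampal tissue. Levels in tissue therefore describe the genes and are given with no test. TLR1, TLR3, TLR6 and TLR9 also stood in the study's list of genes higher in microglia than in alveolar macrophages, and TLR1, TLR6 and TLR9 in its list of microglia-enriched genes. These lists came from the same samples, so the comparison with alveolar macrophages is not independent of them. The study removed TLR3 from the microglia-enriched genes by its check against mouse and human data on other brain cell types.

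RNA was sequenced from 31 samples of male piglets in the fourth week of life, 15 by the tag numbers in the labels, crosses of Large White × Landrace sows and pooled Duroc semen, 1 to a litter, born in standard or freer pens and all sedated and kept under isoflurane for imaging beforehand. Microglia were sorted as CD11b hi CD45 lo cells from the cerebellum, the frontal cortex and the hippocampus (n = 8 each), alveolar macrophages as F4/80+ CD163 lo cells from lung lavage (n = 3), and hippocampal tissue was extracted whole (n = 4). The tags showed 9 pigs with more than 1 sample, among them 2 with both alveolar macrophages and microglia and 4 with both hippocampal microglia and tissue. RNA of sorted cells and RNA of tissue were extracted with different kits, so kit and sample type cannot be told apart. Levels are given in CPM, counts scaled to a common library size with TMM factors, and totals per sample ran from 18438494 to 43477403 counts, so that 3 counts corresponded to 0.0690 to 0.163 CPM. That floor covers counting error only. Every one of the 7 genes had at least 57 counts in every sample.

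Toll-like receptors recognise molecules of microbes and of damaged cells through an ectodomain of leucine-rich repeats, and signal through a cytoplasmic TIR domain to the adaptors MyD88 and TRIF and on to NF-kappaB and interferon regulatory factors. TLR4 at the cell surface binds lipopolysaccharide with MD-2, to which CD14 delivers the ligand. TLR2 pairs with TLR1 or TLR6 for bacterial lipopeptides, whereas TLR3 and TLR9 sit in endosomes and bind double-stranded RNA and unmethylated CpG DNA. In the brain, microglia carry a broad set of these receptors.

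The sorts were first checked against their defining genes. Summed over TMEM119, P2RY12, CX3CR1, TREM2, CSF1R and GPR34, microglia samples held 3584 to 7451 CPM and alveolar macrophage samples 164 to 338 CPM. For 7 alveolar macrophage genes the sums were 670.0 to 1189 CPM in alveolar macrophages and 8.85 to 65.8 CPM in microglia, with ADGRE1, which encodes the sort marker F4/80, at 0 counts in all microglia. The macrophage genes MARCO and FABP4 were, however, at 0 counts in every alveolar macrophage sample. MARCO was at 0 counts in every other sample too, and FABP4 was at most 0.481 CPM in microglia and 1.38 CPM in tissue. Sums over 8 monocyte and neutrophil genes (732.6 to 1372 CPM in alveolar macrophages, 56.2 to 100.3 CPM in microglia) and over 8 T, NK and B cell genes (815 to 1442 CPM against 63.5 to 287 CPM) were also higher in the alveolar macrophage sorts. CXCR2, which marks neutrophils, was at 0 counts in all hippocampal microglia and CD79B, which marks B cells, in all microglia. Other genes of these lists were present in microglia, where means were 71.8 CPM for CD79A, 43.6 CPM for VCAN and 32.9 CPM for CD2. GNLY averaged 23.5 CPM there, CSF3R 21.9 CPM and CCR2 9.91 CPM, and the remaining genes of both lists at most 1.90 CPM. Of 4 plasmacytoid dendritic cell genes only 2, TCF4 and PACSIN1, had an identifier, and their sum was highest in tissue (283 to 449 CPM). It was 54.8 to 109 CPM (median 85.4) in alveolar macrophages and 13.2 to 104 CPM (median 19.8) in microglia. Sums of 10 genes of other brain cells were 166 to 1889.5 CPM in microglia, 148 to 302 CPM in alveolar macrophages and 16655 to 26943 CPM in tissue. The part of these cells in the levels below was not tested, and in bulk samples fewer cells of a type and less RNA per cell cannot be told apart.

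Of the 7 genes, 4 were far higher in microglia than in alveolar macrophages, namely TLR3 and TLR9, which encode endosomal receptors, and TLR1 and TLR6, the partners of TLR2. TLR4, TLR2 and CD14 lay much closer in the 2 cell types. A gene was called when it differed more than 3-fold with an adjusted p below 0.01 in edgeR's quasi-likelihood test, run over 11633 genes. By this rule 4 of 7 genes were higher in microglia, where 12.2% of all tested genes were, and 0 of 7 lower, where 10.1% were. None of the 7 fitted differences was below 0, limma-voom and DESeq2 also called 0 lower, and an unadjusted p under 0.05 was reached by 6 of 7 genes, all higher in microglia (63.9% of all genes reached it in either direction). The median log2 fold change was 2.89 for the 7 genes and 0.06 for all genes tested. All 7 genes came from a list selected for high levels in hippocampal microglia, which are part of the microglia compared here. That choice favours differences above 0, so the lack of lower genes and the median are not read as a result. Of TLR7 and TLR8, which had no identifier there, TLR8 was at -0.85 and TLR7 at 0.16 on the log2 scale. Every microglia sample exceeded every alveolar macrophage sample for the same 4 genes, as it did for 14.3% of all genes. The study had already listed these 4 genes as higher in microglia than in alveolar macrophages, from the same samples and at the same thresholds. Their count and separation therefore repeat that list and are no independent support for it.

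**Figure D1:**
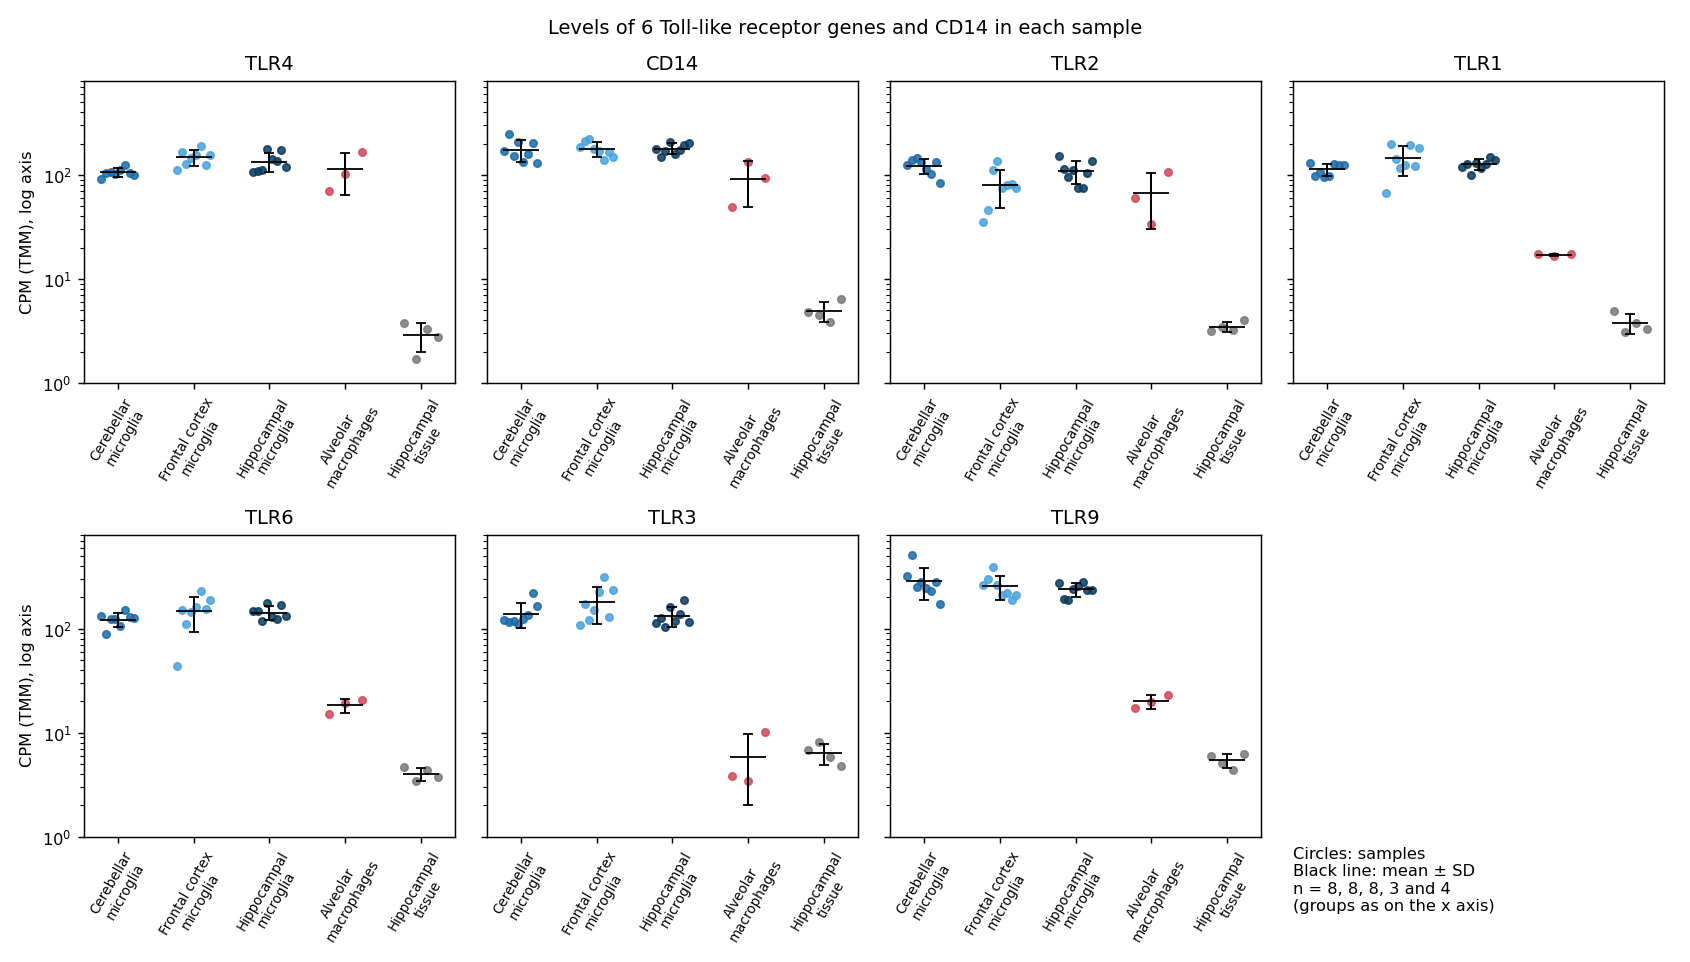
Levels of TLR4, CD14, TLR2, TLR1, TLR6, TLR3 and TLR9 in CPM (TMM, log axis) for each of the 31 samples, with 1 circle per sample and black lines for the mean ± SD of the group (n = 8, 8, 8, 3 and 4 from left to right). Alveolar macrophages overlap the microglia for TLR4, CD14 and TLR2 and lie below all of them for TLR1, TLR6, TLR3 and TLR9, and hippocampal tissue lies below all microglia for each gene.

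TLR4 (ENSSSCG00000005503, chr1:258044610-258054641 on Sscrofa11.1 as are all positions here, plus strand, coding sequence in 3 exons) encodes the receptor for lipopolysaccharide. In alveolar macrophages it stood at 70.0, 102 and 167 CPM, and in tissue at 3.77, 1.70, 3.31 and 2.77 CPM. Cerebellar microglia ranged from 90.7 to 125 CPM (median 105), frontal cortex microglia from 112 to 190.2 CPM (median 151) and hippocampal microglia from 106 to 178 CPM (median 128). The alveolar macrophage values thus spanned nearly the whole microglial range, with 1 sample below all 24 microglia samples and none above all of them. On the log2 scale microglia minus alveolar macrophages came to 0.18 ± 0.19 (SE), or 1.13-fold, with an adjusted p of 0.432 by edgeR's quasi-likelihood test. Its sign rested on 1 library. Without the alveolar macrophages of pig 12821 the log2 fold change was -0.06, and without those of pig 12984, the highest, it was 0.64 (adjusted p = 0.00877, edgeR), still under 3-fold. With the pig as a replicate block it was 0.64 (adjusted p = 0.0461, edgeR).

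CD14 (ENSSSCG00000014369, chr2:142348036-142349686, minus strand, coding sequence in 2 exons), which hands lipopolysaccharide to TLR4, was at 48.9, 134 and 93.7 CPM in alveolar macrophages and at 4.81, 4.501, 3.87 and 6.39 CPM in tissue. Microglia held 129 to 250.3 CPM (median 165) in the cerebellum, 139.6 to 224 CPM (median 174) in the frontal cortex and 149.6 to 209.5 CPM (median 175) in the hippocampus. Only the highest alveolar macrophage sample reached the microglial range. The difference was 1.92-fold (0.94 ± 0.21 SE on the log2 scale, with an edgeR adjusted p of 0.0003003), below the fold threshold of 3. With the pig as a replicate block, which rests on 2 pigs with both cell types, it was 0.94 with an adjusted p of 0.0140 (edgeR), which missed the threshold of 0.01.

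TLR2 (ENSSSCG00000009002, chr8:75416257-75428370, minus strand, coding sequence in 1 exon) encodes the shared partner of the lipopeptide receptors. Alveolar macrophages had 60.2, 34.2 and 107 CPM and tissue had 3.14, 3.43, 3.245 and 3.996 CPM. The range was 84.4 to 147 CPM (median 129) in cerebellar, 35.4 to 136 CPM (median 78.2) in frontal cortex and 75.0 to 153 CPM (median 108) in hippocampal microglia. The 2 cell types overlapped. TLR2 was 0.60 ± 0.28 (SE) higher in microglia on the log2 scale, which did not pass the test (edgeR adjusted p = 0.0677). Leaving out the alveolar macrophages of pig 12984, which held the most TLR2, gave 1.17 (adjusted p = 0.00471, edgeR), again below 3-fold.

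TLR1 (ENSSSCG00000026583, chr8:30147600-30155454) and TLR6 (ENSSSCG00000026592, chr8:30159744-30180650), both with their coding sequence in 1 exon, encode the alternative partners of TLR2 and are neighbours on the minus strand. TLR1 was at 17.3, 16.7 and 17.3 CPM in alveolar macrophages and at 4.93, 3.10, 3.75 and 3.32 CPM in tissue. It ran from 95.1 to 130.02 CPM (median 116) in cerebellar, from 67.4 to 199.6 CPM (median 134) in frontal cortex and from 100.4 to 149.6 CPM (median 127) in hippocampal microglia. TLR1 was 7.43-fold higher in microglia, or 2.89 ± 0.24 (SE) on the log2 scale, with an edgeR adjusted p of 1.24e-11. TLR6 was at 15.2, 19.4 and 20.7 CPM in alveolar macrophages and at 4.65, 3.40, 4.35 and 3.72 CPM in tissue. Its levels were 88.5 to 152 CPM (median 125) in cerebellar, 44.0 to 229 CPM (median 153) in frontal cortex and 118 to 176 CPM (median 139.5) in hippocampal microglia. The fold change of TLR6, 7.45 (log2 2.90 ± 0.29 SE, adjusted p = 9.32e-10, edgeR), was close to that of TLR1. Even the lowest microglia sample, frontal cortex of pig 12599 for both genes, stood above the highest alveolar macrophage sample.

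These 2 genes are paralogs, and part of their sequence cannot tell them apart. Their coding sequences were identical at 77.6% of 2382 aligned bases in RefSeq on Sscrofa11.1. Of 2342 windows of 50 bases in TLR1, the length of each read of a pair, 663 occurred unchanged in TLR6. The windows covered coding sequence only, and the other read of a pair can lie outside a shared stretch. The longest shared run was 321 bases (chr8:30148498-30148818 in TLR1 and chr8:30162811-30163131 in TLR6), and its middle 60 bases are shown first, as a stretch that cannot tell the genes apart. The 60 bases where the aligned genes were least alike follow, with the bases that differ in capitals.
TLR1 and TLR6, shared (chr8:30148629-30148688 and chr8:30162942-30163001): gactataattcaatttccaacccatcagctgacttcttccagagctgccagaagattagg
TLR1, least alike (chr8:30149531-30149590): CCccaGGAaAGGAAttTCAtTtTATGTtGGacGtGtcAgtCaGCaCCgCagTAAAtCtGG
TLR6, least alike (chr8:30163838-30163897): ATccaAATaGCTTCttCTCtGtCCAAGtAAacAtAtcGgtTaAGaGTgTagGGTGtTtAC
In the least alike window 23 of 60 bases were the same. How the counting divided reads of the shared stretches is not given in the sources used here, so the split between the 2 genes is uncertain. Their sum does not depend on how such reads were divided between them, though it would on reads dropped or counted for both. It was 265.6 ± 62.6 CPM (SD, n = 24) for microglia, 7.48-fold the 35.5 ± 2.78 CPM (SD, n = 3) of alveolar macrophages. TLR10, the third gene of this cluster (chr8:30124895-30134854), shared no window of 50 bases with either.

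TLR3 (ENSSSCG00000015801, chr15:46966262-46977774, plus strand, coding sequence in 6 exons), the receptor for double-stranded RNA, showed the largest difference of the 7 genes. It had 3.79, 3.47 and 10.2 CPM in alveolar macrophages and 6.88, 8.11, 5.80 and 4.73 CPM in tissue. Microglia held 109.8 to 221.5 CPM (median 123) in the cerebellum, 109 to 312 CPM (median 162) in the frontal cortex and 104 to 188 CPM (median 122) in the hippocampus. The lowest of 24 microglia samples, at 104 CPM, lay far above the highest alveolar macrophage sample, at 10.2 CPM. TLR3 was 25.7-fold higher in microglia, 4.68 ± 0.39 (SE) on the log2 scale, with an edgeR adjusted p of 2.13e-11. The size depended on the alveolar macrophages of pig 12984, without which the log2 fold change was 5.42. The fit with the pig as a replicate block gave 5.45 (adjusted p = 9.08e-08, edgeR). TLR3 was also the only one of the 7 genes whose alveolar macrophage and tissue levels overlapped.

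TLR9 (ENSSSCG00000011436, chr13:34353444-34370990, minus strand) is the receptor for CpG DNA. Alveolar macrophages had 17.1, 19.7 and 23.0 CPM and tissue had 5.94, 5.10, 4.41 and 6.30 CPM. The values were 174 to 505 CPM (median 265) in cerebellar, 187 to 395 CPM (median 240.4) in frontal cortex and 187 to 282 CPM (median 239) in hippocampal microglia. TLR9 was 12.98-fold higher in microglia, 3.70 ± 0.27 (SE) on the log2 scale, with an edgeR adjusted p of 1.25e-12. The RefSeq locus of TLR9 extends over that of TWF2 (chr13:34361294-34370997), which encodes an actin-binding protein of the twinfilin family, so the level of TLR9 is less certain if the counting annotation has the same extent. TWF2, counted under its own identifier, had 60.9 ± 15.5 CPM (SD, n = 24) over microglia against 97.2 ± 15.8 CPM (SD, n = 3) over alveolar macrophages.

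The other endosomal receptors, TLR7 and TLR8, bind single-stranded RNA. Their values were added after seeing the data, and neither gene was called in any fit of microglia against alveolar macrophages. TLR7 (ENSSSCG00000012117) was at 113, 97.5 and 118 CPM in alveolar macrophages and at 68.3 to 190.5 CPM (median 119) in the 24 microglia samples, which overlapped. Microglia minus alveolar macrophages was 0.16 ± 0.17 for TLR7 on the log2 scale (SE, adjusted p = 0.443, edgeR). TLR8 (ENSSSCG00000012118) was at 23.3, 29.9 and 16.7 CPM in alveolar macrophages and at 1.90 to 19.998 CPM (median 13.7) in microglia, which overlapped too. Its difference was -0.85 ± 0.39 (SE, adjusted p = 0.0569, edgeR), under the required fold of 3 in every fit, while its adjusted p was 0.00251 in limma-voom and 0.0068 with the pig as a replicate block in edgeR (-1.48). With these 2 genes counted, 4 of 9 receptor and co-receptor genes were called higher. In tissue TLR7 was at 35.7 to 42.2 CPM, and TLR8 at 0.0922 to 0.693 CPM.

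The 300 bases before the start of each gene are shown for the 4 genes that differed between microglia and alveolar macrophages and for TLR4, which did not pass the test. They were read from RefSeq on Sscrofa11.1 and are written 5′ to 3′ on the strand of the gene, for TLR9 before its transcript start at 34357649. Capitals mark matches, on either strand, to GAGGAA, the core of sites for the myeloid factor PU.1, and to GAAA, any 2 bases and GAAA again, a motif of interferon regulatory factors.
TLR1 (chr8:30155455-30155754, minus strand): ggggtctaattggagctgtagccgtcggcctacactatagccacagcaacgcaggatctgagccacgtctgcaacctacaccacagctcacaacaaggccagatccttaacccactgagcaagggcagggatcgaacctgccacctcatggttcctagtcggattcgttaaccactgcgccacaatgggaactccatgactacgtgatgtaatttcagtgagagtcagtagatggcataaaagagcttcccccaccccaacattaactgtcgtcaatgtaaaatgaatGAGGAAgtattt
TLR6 (chr8:30180651-30180950, minus strand): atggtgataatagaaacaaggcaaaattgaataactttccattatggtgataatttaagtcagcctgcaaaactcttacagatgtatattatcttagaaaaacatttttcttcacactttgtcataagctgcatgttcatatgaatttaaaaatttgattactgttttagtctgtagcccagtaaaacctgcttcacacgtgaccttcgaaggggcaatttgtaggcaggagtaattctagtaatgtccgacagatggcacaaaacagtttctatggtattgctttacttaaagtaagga
TLR3 (chr15:46965962-46966261, plus strand): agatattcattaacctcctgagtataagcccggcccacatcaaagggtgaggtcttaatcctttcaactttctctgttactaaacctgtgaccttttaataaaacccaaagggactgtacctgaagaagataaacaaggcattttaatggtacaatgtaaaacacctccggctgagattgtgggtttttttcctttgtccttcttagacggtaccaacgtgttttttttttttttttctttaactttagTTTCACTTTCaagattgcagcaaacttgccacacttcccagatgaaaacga
TLR9 (chr13:34357650-34357949, minus strand): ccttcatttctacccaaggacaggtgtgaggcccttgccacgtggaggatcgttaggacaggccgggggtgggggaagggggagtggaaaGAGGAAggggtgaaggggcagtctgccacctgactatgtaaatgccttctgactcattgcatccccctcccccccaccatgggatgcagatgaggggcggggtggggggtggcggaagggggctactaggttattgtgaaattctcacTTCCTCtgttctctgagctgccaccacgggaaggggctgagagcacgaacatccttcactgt
TLR4 (chr1:258044310-258044609, plus strand): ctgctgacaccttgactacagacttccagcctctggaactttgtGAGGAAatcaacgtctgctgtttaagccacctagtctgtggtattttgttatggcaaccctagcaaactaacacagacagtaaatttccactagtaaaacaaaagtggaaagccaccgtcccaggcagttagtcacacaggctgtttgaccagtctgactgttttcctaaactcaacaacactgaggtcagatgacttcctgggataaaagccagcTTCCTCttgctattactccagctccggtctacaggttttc
GAGGAA occurred in TLR1 (12 bases before the start), TLR9 (210 and 62 bases) and TLR4 (256 and 40 bases) and in no other of the 7 windows, and in 26.4% of 19549 windows of this length over all genes. The interferon regulatory factor motif occurred in TLR3 alone, 51 bases before its start, and in 3.78% of all windows. The letters TATAAA of the TATA box were in none of the 7 and in 11.96% of all windows. These matches describe the sequence and do not show a bound site, and GAGGAA was found both in genes that differed between the cell types and in TLR4.

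Levels were then set side by side per length, as CPM per kb of RefSeq exon. In microglia CD14 was highest with 113 ± 19.4 (SD, n = 24), followed by TLR9 with 59.6 ± 16.3, TLR3 with 49.0 ± 16.7, TLR1 with 39.5 ± 9.49, TLR4 with 36.1 ± 7.80, TLR6 with 28.2 ± 7.29 and TLR2 with 20.7 ± 6.30. In alveolar macrophages CD14 also led, with 58.7 ± 27.1 (SD, n = 3), but TLR4 came next with 31.6 ± 13.8 and TLR2 after it with 13.4 ± 7.37. The other 4 genes there were between 1.88 (TLR3) and 5.28 (TLR1). TLR3 thus ranked as number 3 of 7 in microglia and as the lowest in alveolar macrophages. Per kb of coding sequence 3 of 7 ranks in microglia were the same (CD14, TLR9 and TLR2), and TLR6 moved from rank 6 to rank 3, so the order of the receptors in the middle depends on the annotated length. Both lengths of TLR9 were taken over a locus that reaches 34370990, beyond the transcript start at 34357649. Its level per kb is therefore uncertain as well.

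**Figure D2:**
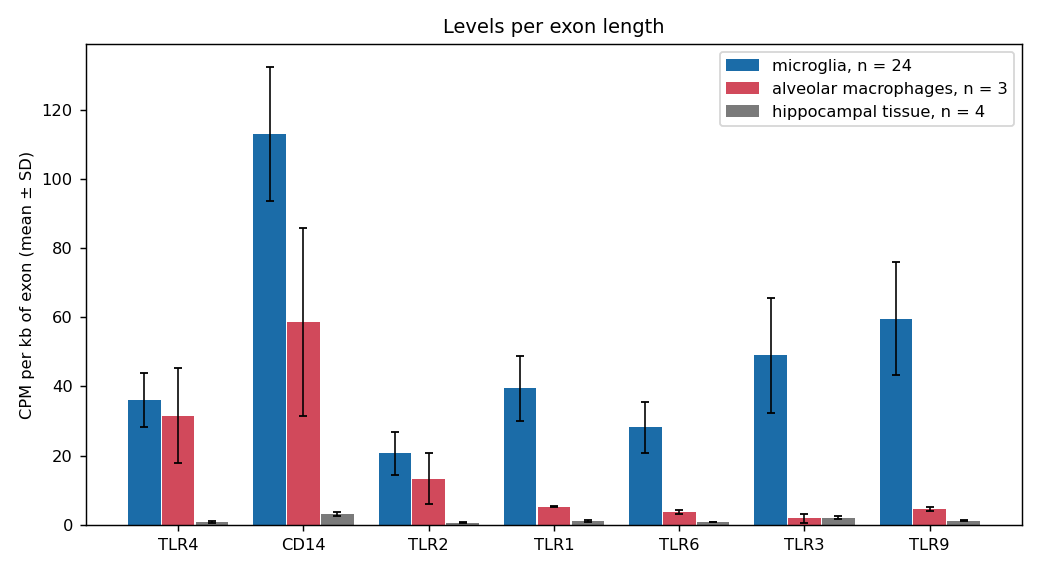
Level of each gene in CPM per kb of RefSeq exon, as the mean with SD over the samples of microglia (blue, n = 24), alveolar macrophages (red, n = 3) and hippocampal tissue (grey, n = 4). CD14 is the tallest in each sample type, TLR4 is at 36.1 in microglia and 31.6 in alveolar macrophages, and TLR3 and TLR9 are tall in microglia only among these 3 sample types.

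Spread among samples also differed between the genes. Over the 24 microglia samples the SD was 17.2% of the mean for CD14 and 21.6% for TLR4, against 27.4% for TLR9, 30.5% for TLR2 and 34.1% for TLR3. In the 3 alveolar macrophage samples TLR1 varied least (1.94%) and TLR3 most (65.3%). The alveolar macrophages of pig 12984 were highest for 5 of 7 genes (TLR2, TLR3, TLR4, TLR6 and TLR9). The frontal cortex microglia of pig 12599 were lowest of their 8 samples for TLR1, TLR2, TLR3, TLR4 and TLR6, but not for TLR9 and CD14. This sample also had the highest sum of genes of other brain cells among all microglia, 1889.5 CPM, and the part of those cells in its levels was not tested.

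In hippocampal tissue these genes stood at a small share of their level in hippocampal microglia. The mean in tissue was 2.14% of that in microglia for TLR4, 2.28% for TLR9, 2.73% for CD14, 2.82% for TLR6, 2.99% for TLR1, 3.19% for TLR2 and 4.80% for TLR3. The sum of the 6 microglia markers in tissue was 2.85% of that in microglia, with single markers from 2.16% (CX3CR1) to 4.89% (GPR34). The shares of the 7 genes thus lay within the range of the markers, apart from TLR4, which was just under it. The list that gave their identifiers was selected for such low levels in tissue. TLR7, outside it, had a mean of 38.5 CPM in tissue against 121 CPM in hippocampal microglia (log2 1.65 ± 0.18, SE). TLR8, also outside it, had 0.296 against 9.99 CPM (log2 5.06 ± 0.56, SE). Fitted log2 fold changes were 5.54 for TLR4, 5.46 for TLR9, 5.20 for CD14, 5.15 for TLR6, 5.06 for TLR1, 4.97 for TLR2 and 4.38 for TLR3. The source of the identifiers fixed this direction, and nothing is read from it. In each of 4 pigs with both samples, every gene was higher in microglia, with the smallest within-pig log2 difference, 4.08, in TLR3 and the largest, 6.27, in TLR4. Alveolar macrophages were set against the same 4 tissue samples, whose low values had served to choose the identifiers, so these differences too are given with no test. They ran from 1.88 for TLR9 to 5.29 for TLR4 on the log2 scale in 6 of 7 genes, and TLR3 was at -0.13 ± 0.34 (SE).

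The means of the 4 groups of sorted cells were put in order for each gene, with edgeR's test between neighbours. For TLR1 and TLR6 the order was frontal cortex, hippocampal and cerebellar microglia and alveolar macrophages, and only the last step passed an adjusted p of 0.01. TLR9 was led by cerebellar and TLR3 by frontal cortex microglia, alveolar macrophages came last for both, and no step between regions passed. For CD14, led by hippocampal microglia, the step from cerebellar microglia to alveolar macrophages had an adjusted p of 0.00088 (edgeR), but of 0.0182 with the pig as a replicate block and of 0.0118 with no filter on low counts (both edgeR). For TLR2, led by cerebellar microglia, and for TLR4 no step between the sorted cells passed. TLR4 placed alveolar macrophages (113 ± 49.5 CPM, SD, n = 3) between hippocampal (135 ± 28.0 CPM, SD, n = 8) and cerebellar microglia (106 ± 10.2 CPM, SD, n = 8). The mean of tissue was below every other for 6 of 7 genes, and for TLR3 it was 6.38 ± 1.45 CPM (SD, n = 4) against 5.82 ± 3.80 CPM (SD, n = 3) in alveolar macrophages.

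Among the 3 brain regions none of the 7 genes passed the edgeR test over all genes. Microglia of the cerebellum had a lower mean of TLR4 (106 against 147 CPM) and a higher mean of TLR2 (122 against 80.2 CPM) than those of the frontal cortex. An F test over the regions called 0 of 7 genes at an adjusted p of 0.01 (edgeR), where 2.03% of all genes were called, and 2 of 7, TLR4 and TLR2, had an unadjusted p under 0.05, as 25.9% of all genes did. Limma-voom and DESeq2 called 0 of 7 as well. Adjusted p was 0.0934 for TLR4, 0.146 for TLR2 and from 0.256 to 0.990 for the others. TLR4 in cerebellar minus frontal cortex microglia was at -0.48 ± 0.15 on the log2 scale (SE, adjusted p = 0.0679, edgeR), and a fit of the microglia samples alone gave -0.48 with an adjusted p of 0.00762. TLR2 had 0.61 ± 0.22 (SE, adjusted p = 0.109, edgeR). CD14 had the smallest regional differences, from -0.03 to -0.02 in the 3 pairs of regions, each with an SE of 0.16.

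Both regions came from the same animal in 6 pigs, and there TLR4 was lower in cerebellar microglia in 6 of 6, by log2 differences from -0.64 to -0.10. TLR2 was higher in cerebellar microglia in 6 of 6, from 0.12 to 1.99. The other 5 genes had both directions among the 6 pigs. Hippocampal microglia shared an animal with cerebellar ones in 4 pigs, where TLR1 and TLR6 were lower in the cerebellum in 4 of 4 (-0.41 to -0.17 and -0.30 to -0.14). They shared one with frontal cortex microglia in 3 pigs, where TLR4 and TLR3 were higher in the cortex (0.15 to 0.48 and 0.40 to 0.86) and TLR2 lower (-0.63 to -0.17) in 3 of 3. The members not named for these 2 comparisons had both directions. With so few pigs, genes without a difference can also agree in sign, and the share of all genes that did was not measured. With the pig as a replicate block the adjusted p for cerebellar minus frontal cortex microglia was 0.0928 for TLR4 and 0.0662 for TLR2 in edgeR, and 0.0207 and 0.0213 in limma, so neither passed 0.01. Without the 2 frontal cortex samples with the most RNA of other brain cells (pigs 12599 and 12891), a choice made after seeing the data, the difference was -0.57 for TLR4 (adjusted p = 0.0267, edgeR), 0.48 for TLR2 (adjusted p = 0.167), -0.50 for TLR1 (adjusted p = 0.0107) and -0.42 for TLR6 (adjusted p = 0.0464).

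**Figure D3:**
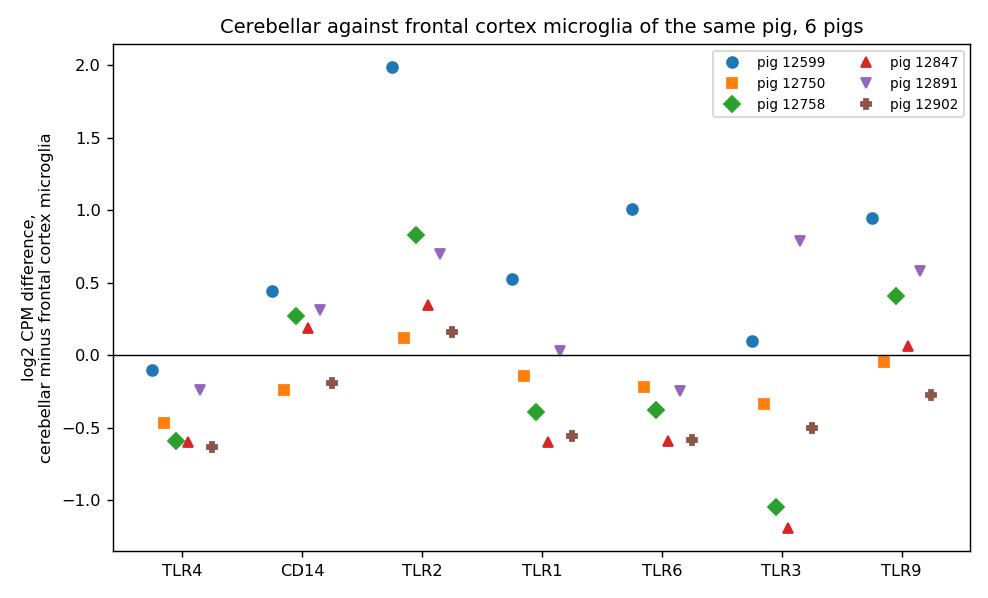
Difference in log2 CPM between cerebellar and frontal cortex microglia of the same pig for each gene, with 1 symbol per pig (6 pigs) and 0 marked by a line. All 6 pigs lie below 0 for TLR4 and above 0 for TLR2, pig 12599 lies highest for TLR2 at 1.99, and the other genes fall on both sides.

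The other genes of the pathway were taken from a list of 58 co-receptors, adaptors, kinases, transcription factors, inhibitors and targets, of which 53 had an identifier and 44 passed the filter on low counts. Against alveolar macrophages, microglia had 6 of 44 higher (13.6%, against 12.2% of all genes) and 10 of 44 lower (22.7%, against 10.1%), and the median log2 fold change was -0.14. Those higher included 2 chaperones and 1 co-receptor, and those lower 4 inhibitors and 3 NF-kappaB subunits. The filter asked for over 10 CPM in every sample of only 1 group. TNIP3, SIGIRR and PTGS2 passed it through groups other than microglia, and CXCL10 through groups other than alveolar macrophages. For such genes the filter itself favours the direction seen, so their part in these counts is not read as a result. With the pig as a replicate block in edgeR, 5 of 44 were lower (IKBKE, NFKB1, NFKB2, REL and TNIP1), beside 7.83% of all genes. In that fit 7 of 44 were higher, beside 10% of all genes.

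Of the chaperones, 2 of 3 were higher in microglia. UNC93B1, which carries the endosomal receptors out of the endoplasmic reticulum, averaged 379 CPM in microglia against 81.1 CPM (log2 fold change 2.22, adjusted p = 6.43e-11, edgeR), and CNPY3, a chaperone of Toll-like receptor folding, differed by 1.96 on the log2 scale (adjusted p = 4.96e-11, edgeR). CD180, a relative of TLR4 without a TIR domain, was the only co-receptor past the filter and was also higher (log2 1.94). The adaptors were not called, as MYD88 was 2.56-fold higher (202 against 78.9 CPM, adjusted p = 3.07e-08, edgeR), below the threshold of 3, and TICAM1, which encodes TRIF, differed by 0.21 ± 0.54 on the log2 scale (SE). LY96, the gene of MD-2, was low in all groups and not tested. It had 5.41 to 6.05 CPM in alveolar macrophages, 0 to 5.17 CPM in microglia and 0.377 to 0.894 CPM in tissue.

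Among 16 kinases and ubiquitin ligases, IRAK2, a kinase of the MyD88 complex, was higher (169.6 against 25.1 CPM, log2 2.76, adjusted p = 4.59e-16, edgeR), IKBKE was lower (log2 -2.01) and the remaining 14 were not called. IRAK4, the first kinase of that complex, differed by 0.27 ± 0.17 (SE). Of 8 transcription factors, IRF8 was higher (log2 1.89) and NFKB1, NFKB2 and REL were lower. NFKB1 averaged 61.5 CPM in microglia against 203 CPM (log2 -1.73, adjusted p = 2.19e-15, edgeR) and NFKB2 27.3 against 138 CPM (log2 -2.36). IRF3, which acts downstream of TRIF, differed by -0.01 ± 0.17 (SE).

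Of 9 inhibitors, 4 were lower in microglia and 0 higher in edgeR, limma-voom and DESeq2, beside 10.1% and 12.2% of all genes in edgeR. Of these, TNIP3 and SIGIRR passed the filter only through alveolar macrophages, where they were high, so their direction was set by the filter. With the replicate block in edgeR only TNIP1 of the 9 was called lower, beside 7.83% of all genes. At an unadjusted p under 0.05 there were 7 of 9, all lower, beside 63.9% of all genes in either direction. TNIP3, a partner of A20, was at 0 counts in all 24 microglia samples against 20.9 ± 0.977 CPM (SD, n = 3), at least 128-fold higher there against a floor of 3 counts per library. SIGIRR, a receptor that dampens this signalling, was at 0 to 1.19 CPM in microglia and 18.6 to 31.04 CPM in alveolar macrophages, and TNIP1 had a log2 fold change of -2.21 and TNFAIP3, which encodes A20, one of -1.94. Among the targets CXCL10 was higher in microglia (67.0 against 3.95 CPM, log2 4.07, adjusted p = 3.26e-08, edgeR), whereas PTGS2, which encodes cyclooxygenase 2, was lower (0.368 against 21.2 CPM), as was IL1A. SIGIRR, TNIP3, TNFAIP3, PTGS2 and IL1A were not called with the pig as a replicate block in edgeR. CXCL8 did not pass the filter and was at 0 counts in all microglia and tissue samples and at 6.64, 14.4 and 41.7 CPM in alveolar macrophages. T, NK, B cell, monocyte and neutrophil genes were also higher in the alveolar macrophage sorts, as given above, and their part in these differences was not tested.

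**Figure D4:**
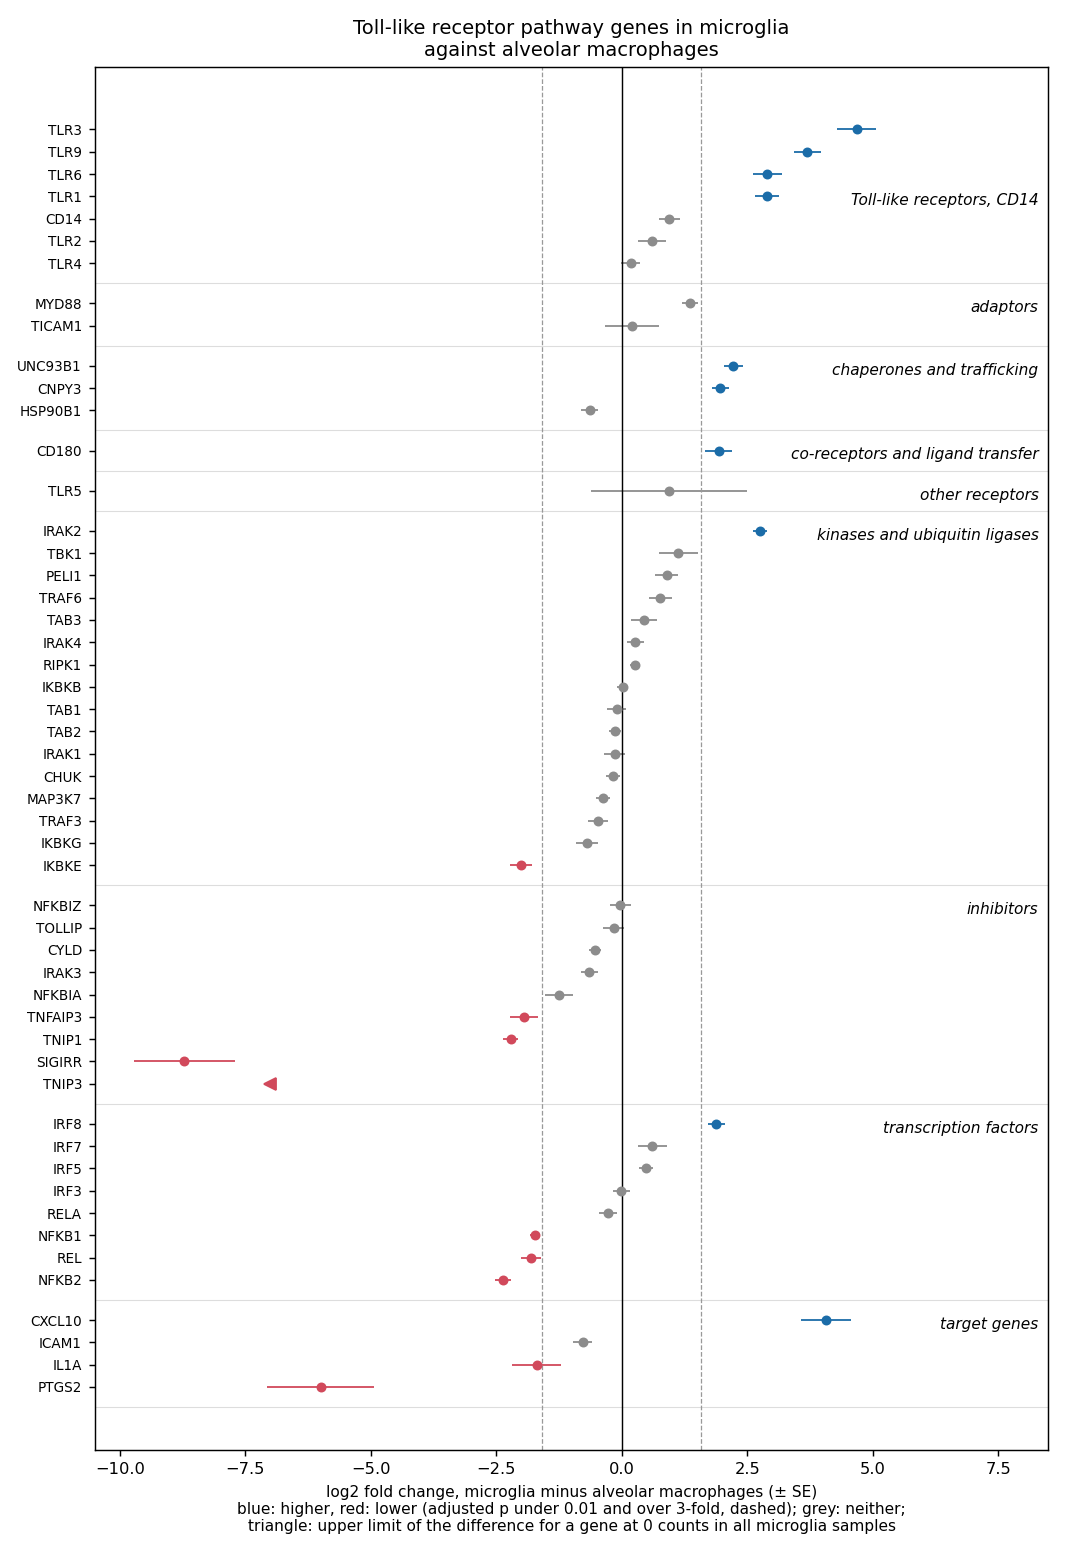
Log2 fold change of microglia minus alveolar macrophages (± SE) for the 7 genes and for 44 pathway genes grouped by role, with blue for genes called higher, red for genes called lower and grey for neither, and dashed lines at 3-fold. TLR3 and TLR9, UNC93B1, IRAK2 and CXCL10 lie to the right, the inhibitors lie at or left of 0, and the triangle marks TNIP3, at 0 counts in all microglia, at the limit set by 3 counts.

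Against whole hippocampal tissue, hippocampal microglia had 19 of 44 pathway genes higher (43.2%, against 11.7% of all genes) and 2 of 44 lower (4.55%, against 22.1%), at an adjusted p of 0.01 and a fold change of 4 with edgeR. The largest differences among those higher were UNC93B1 (log2 5.24), IL1A (5.22), IRF5 (5.10), CXCL10 (4.91) and CD180 (4.58). MYD88 (3.92), TICAM1 (3.32), IRAK4 (2.67) and NFKB1 (2.25) were higher as well. IL1A was not called with only the groups compared, nor TICAM1 in limma-voom, with or without the replicate block. IRF3, at 1.97, was just below 4-fold. The flagellin receptor TLR5 went the other way, with 18.3 to 20.1 CPM in tissue and 0 to 2.69 CPM in hippocampal microglia (log2 -5.49). It passed the filter on low counts through tissue, where it was high, which favours this direction. Its difference is therefore given with no test, though it is counted among the 2 lower. SIGIRR was also higher in tissue (1.28 to 2.30 CPM, against 0 to 0.0783 CPM), though not past the threshold with the replicate block in edgeR or with only the groups compared. The regions F test called 0 of 44 pathway genes at an adjusted p of 0.01 in edgeR (2.03% of all genes) and limma-voom (2.38%) and 2 of 44 in DESeq2 (6.79%). An unadjusted p under 0.05 was reached by 12 of 44 in edgeR, beside 25.9% of all genes. CNPY3 came closest (adjusted p = 0.0154, edgeR), and for cerebellar minus frontal cortex microglia alone it was 0.53 higher on the log2 scale (adjusted p = 0.00674, edgeR), as 0.894% of all genes were called.

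The genes whose pattern over all 31 samples was most like each receptor were sought among 10126 tested genes with a symbol, by Pearson's r of log2 CPM. TLR4 was most like LCP2 (r = 0.988), an adaptor of immune receptor signalling, CLEC2D (0.985) and LAPTM5 (0.983), a lysosomal protein of blood cells. TLR1 was most like the endocytic receptor gene LY75 (0.993), TLR2 like WDFY4 (0.973), TLR3 like OTULINL (0.979), TLR6 like LRCH1 (0.990), TLR9 like IRAK2 (0.991) and CD14 like ICOSLG (0.990). The 31 points share libraries and fall into 5 groups, so that steps between groups weigh heavily in these values. By ranks (Spearman) a different gene came first for each of the 7.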

How the data were processed

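Total RNA was sequenced from 31 samples with a stranded library kit. The authors aligned reads to Sscrofa 11.1 and, per the labels' processing notes, used HISAT2 and StringTie. The deposited values are raw counts per gene, not normalized, and the strand setting is not given in the sources used here. Counts were normalized by TMM (factors 0.826 to 1.16). The 11633 genes for which some group had every sample over 10 CPM were fitted with edgeR 4.0.16 (robust quasi-likelihood, all 5 groups, R 4.3.3), p-values were adjusted by Benjamini-Hochberg, and thresholds were 0.01 with a fold over 3 (alveolar macrophages) or 4 (tissue). The CPM of samples used no pseudocount, and log2 CPM a prior count of 2. Alternatives were limma-voom 3.58.1, DESeq2 1.42.0, other scalings, filters and thresholds, the pig as a replicate block and each sample left out. The method was tested on simulated data. Several samples share a pig, which the unblocked fit ignores. Closest replicates differed by a chi-square of at least 18.9 per degree of freedom, so none was a duplicate. The members and lists were chosen with earlier results of these data known. All 7 genes were named, as were the 5 pathway genes called with the largest fold change in each direction and comparison (for regions, the smallest p) and, in any case, MYD88, TICAM1, LY96, UNC93B1, IRAK4, NFKB1 and IRF3. IRF8, IKBKE, REL, TNFAIP3, IL1A against alveolar macrophages, and CXCL8 were named after their values were seen, as were TLR7 and TLR8, matched by the gene names of the reference.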

Additional observations from a re-analysis of the deposited data

Results flagged for a closer look

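TLR9 in the cerebellar microglia of pig 12599 stood apart from the other 7 samples of its group, at 505.3 CPM against 317 CPM for the next highest, a gap of 0.568 of the group's range. Of 28 groups of samples searched, 1 was marked in this way, and chance marks about 1 in 20. Without that sample cerebellar minus frontal cortex microglia was -0.01 for TLR9 on the log2 scale, against 0.16 with it. Neither value passed the test.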

How the results depend on the processing

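The counts of the 7 genes called (4 higher and 0 lower against alveolar macrophages, 0 among regions) were the same under all 11 other settings and all 31 fits that left out 1 sample. Of 1470 fold changes of single genes under alternatives, 1429 kept direction and call, 40 turned sign with no call in either fit, and TLR4 in cerebellar minus frontal cortex microglia passed with only the groups compared (-0.48). Signs turned for TLR6 in frontal cortex minus hippocampal microglia with limma-voom (-0.053) and the limma block (-0.034), and for TLR9 with the edgeR block (-0.11). They turned for CD14 in cerebellar minus frontal cortex microglia with the edgeR (0.12) and limma block (0.0048), in cerebellar minus hippocampal microglia with the edgeR block (0.0085) and only the groups compared (0.014), and in frontal cortex minus hippocampal microglia with DESeq2 (0.0191), RLE factors (0.0191), no factors (0.081), filterByExpr (6.1e-05) and only the groups compared (0.042). As single samples were left out, these 3 CD14 differences ranged from -0.11 to 0.031, -0.13 to 0.062 and -0.0398 to 0.13, TLR3 in cerebellar minus hippocampal microglia from -0.058 to 0.16, TLR9 in cerebellar minus frontal cortex microglia from -0.011 to 0.24, and TLR4 against alveolar macrophages from -0.0601 to 0.64. Pathway genes lower against alveolar macrophages numbered 5 with the pig as a replicate block in edgeR (7.83% of all genes), against 10 (10.1%). Those lower in hippocampal microglia than tissue, 2 (22.1% of all genes), became 4 with no filter (19.1%) or at an adjusted p under 0.05. They became 1 with the edgeR block (21.2%) or only the groups compared (22.9%). Pathway genes that differed among regions, 0 (2.03% of all genes), became 2 with DESeq2 (6.79%) and 1 with the block in limma (3.31%). They became 1 without the 2 frontal cortex samples (chosen after seeing the data, 4.25%) and 3 at an adjusted p under 0.05. They ranged from 0 to 1 as single samples were left out (1 without frontal cortex pig 12750). Shares of all genes are not given for that threshold or for single samples left out. The causes were not tested. Deviations of samples of 1 pig correlated at a mean of 0.125 between microglia regions, and tags in the labels show the shared animal. Other scalings moved the median of all genes by -0.20 (DESeq2's size factors) to 0.21 (no factors) for hippocampal microglia minus tissue. With 3 alveolar macrophage samples, single libraries set the size of the TLR4, TLR2 and TLR3 differences.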
